A study of Mus musculus with 6 samples.

Results

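The fragments described here are glycine tRNA-derived small RNAs (tDRs) of mouse brain that cannot be assigned to Gly-GCC alone or to Gly-CCC alone. A tDR ID stands for one fragment, and the table names for each ID the tRNAs that hold it, its parents. IDs were kept if every parent is a glycine tRNA and at least one is a mature tRNA, and IDs whose parents are all Gly-GCC or all Gly-CCC were left out. This gave 21 of the 591 IDs in the table and of its 68 glycine IDs. Of the 21, 8 have both Gly-GCC and Gly-CCC parents, 11 have Gly-TCC parents and 2 have the parent Gly-ACC-1-1. The choice used names only and no measured value.

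Brains of C57BL/6 mice, a common inbred strain, were profiled in 3 libraries from animals aged 22 months and 3 libraries from animals aged 3 months. The labels name no other treatment or allele, and they do not say whether each library is 1 animal, so the tests rest on the spread among these 6 libraries, which may be technical. The study asks which tRNA fragments differ between aged and young brain. Columns named Age and WT were read as 22 and 3 months from those names. Listed tags summed to between 71121 and 96130 per library at 22 months and between 44156 and 57425 at 3 months. Each library lists only counts from 13, 17 and 17 tags upwards at 22 months and from 11, 8 and 9 tags at 3 months, so a listed 0 means a level under that minimum. The library of 22 month replicate 3 stood apart, with Spearman correlations over the 591 IDs of 0.749 and 0.824 with replicates 1 and 2 of its age, against 0.908 between those 2, and results that turn on it are given without it as well. Levels are shares of what the table lists, not of the whole library. In whole brain, fewer cells of a type and less RNA per cell cannot be told apart.

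Glycine tRNAs carry glycine to the ribosome, and their anticodons GCC, CCC and TCC read the glycine codons. Many fragments from the 5′ side of tRNAs arise by a cut in the anticodon loop, which the ribonuclease angiogenin makes under stress. The 5′ fragments of glycine tRNAs with the anticodon GCC are known as abundant small RNAs of mouse tissues, sperm among them. Because their 5′ ends differ little from those of Gly-CCC tRNAs, a short read often cannot tell these isoacceptors apart.

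The sequences of the parents show what the shared IDs can be. The mature Gly-GCC-2-1 and Gly-CCC-5-1 tRNAs, as the deposited table gives them, stand for the 16 parents of the 5 most abundant IDs, and capitals mark the run from base 1 to base 32 that these 16 share.
Gly-GCC-2-1: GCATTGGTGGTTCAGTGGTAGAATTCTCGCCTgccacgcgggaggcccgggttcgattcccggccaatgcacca
Gly-CCC-5-1: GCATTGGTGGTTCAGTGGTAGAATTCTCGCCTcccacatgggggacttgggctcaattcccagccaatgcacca
The run ends 1 base before the anticodon, bases 33 to 35, and the first difference between these tRNAs is G33C, in the anticodon itself (positions are counted from the 5′ end of the first tRNA named).

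In the next pair capitals mark bases 16 to 32, the stretch of 17 nt common to the 28 parents of AS-tDR-009969.
Gly-GCC-1-1: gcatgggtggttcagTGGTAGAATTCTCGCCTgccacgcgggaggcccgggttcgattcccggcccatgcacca
Gly-CCC-2-1: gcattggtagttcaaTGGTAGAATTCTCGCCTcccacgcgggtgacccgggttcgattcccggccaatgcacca
Set against Gly-GCC-2-1, Gly-GCC-1-1 differs by T5G and A66C. Gly-CCC-2-1 differs from Gly-GCC-2-1 by G9A, G15A, G33C, A43T and G45A.

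The Gly-TCC parents have 2 distinct sequences, and capitals mark bases 1 to 49, which both share.
Gly-TCC-1-1: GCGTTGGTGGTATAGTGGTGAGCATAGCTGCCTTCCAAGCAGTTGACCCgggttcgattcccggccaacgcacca
Gly-TCC-2-1: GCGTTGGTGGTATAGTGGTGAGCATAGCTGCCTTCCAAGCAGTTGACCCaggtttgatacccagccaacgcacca
They differ by G50A, C55T, T59A and G63A, all on the 3′ side of the anticodon at bases 34 to 36. In the last parent, capitals mark the anticodon.
Gly-ACC-1-1: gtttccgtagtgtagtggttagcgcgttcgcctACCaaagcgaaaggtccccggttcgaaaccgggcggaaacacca
This tRNA is 5 edits from Val-AAC-1-1 and Val-AAC-1-2, the nearest mature tRNAs of another amino acid in the table, and 27 edits from Gly-GCC-1-1, the nearest other glycine tRNA. RefSeq's annotation of GRCm38.p6 holds 14 Gly-GCC tRNA genes on 7 chromosomes, 6 Gly-CCC genes on 4, 7 Gly-TCC genes on 3 and 1 Gly-ACC gene on chromosome 11. The files do not pair parent names with positions, so no gene copy was located.

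The table gives the sequence of each parent and not of the fragment, so the place of a fragment was bounded from its parents. Every run of 15 to 50 nt found in all parents of an ID and in none of the other parent names of the table, 503 in all, was collected. This assumes exact matches and complete parent lists. For the 5 IDs with 16 parents, AS-tDR-007238, AS-tDR-000011, AS-tDR-001297, AS-tDR-007243 and AS-tDR-010647, 25 such runs exist. All 25 start at base 5 or before and end at base 28 or after, within bases 1 to 32, so each is 24 to 32 nt long and lies on the 5′ side of the anticodon. For AS-tDR-009969, with 28 parents, 6 runs of 15 to 17 nt between bases 16 and 32 exist. For AS-tDR-005360 and AS-tDR-010307, both with the same 12 parents, 0 such runs exist. Their parents, of Gly-GCC-1 and of Gly-CCC-2, Gly-CCC-3 and Gly-CCC-4, share bases 16 to 32 and 46 to 65, but each shorter run there also stands in other parents. Exact matching therefore does not account for the parents listed for these 2 IDs, and their place was not determined.

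Among Gly-TCC IDs, the 4 with 10 parents lie within bases 1 to 49 by the same reasoning. Bounded likewise, the 5 with 8 parents, all Gly-TCC-1 tRNAs, and the 2 with 2 parents, of Gly-TCC-2-1, end at base 50 or after. They lie within bases 1 to 72. Under the same assumptions of exact matches and complete parent lists, both Gly-ACC IDs would span bases 39 to 75, at least 37 nt. That stretch reaches the CCA end that mature tRNAs carry at bases 75 to 77.

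**Figure D1:**
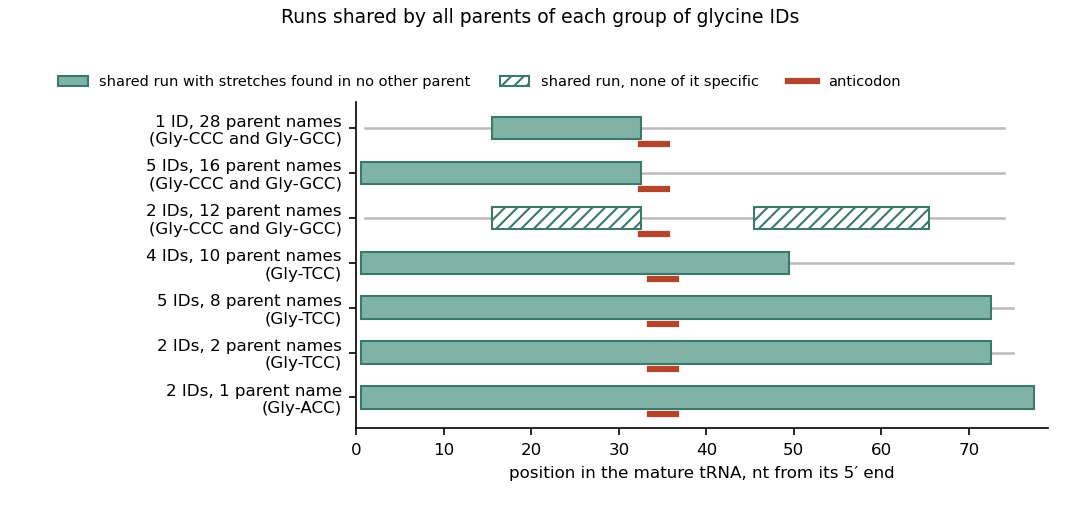
Bars show, along the mature tRNA (nt from its 5′ end), the runs that all parents of each group of IDs share, the anticodon is marked in red, and hatched bars hold no stretch found only in those parents. The run of the 5 IDs with 16 parents covers bases 1 to 32 and stops just before the anticodon.

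The 5 IDs on the 5′ run made up most of the tags of the 21. Together they took 17.6%, 21.5% and 18.4% of listed tags in 22 month replicates 1, 2 and 3, and 16.1%, 13.1% and 17.1% in 3 month replicates 1, 2 and 3. Their means were 19.2% ± 2.08 at 22 months, against 15.4% ± 2.04 at 3 months (± SD over 3 libraries). The lowest library at 22 months lay above the highest at 3 months. Such separation was common among single IDs. By scaled tag counts, 19.4% of all IDs tested separated upwards at 22 months and 20% downwards. The Wilson interval at 95% of each share of listed tags reached at most 0.351 percentage points to either side and covers counting error only. All 21 IDs summed to 21.9% ± 2.19 of listed tags at 22 months, against 19.1% ± 2.22 at 3 months (± SD over 3 libraries), and here the ages overlapped. Within the tags of the 21, the 5 IDs held 83.1%, 88.1% and 90.7% in the libraries at 22 months, against 81.7%, 78.8% and 81.2% at 3 months. Of all glycine tags they held 64.2% ± 5.11 at 22 months, against 65.5% ± 3.64 at 3 months (± SD over 3 libraries). All 68 glycine IDs also separated, at 26.7%, 31.5% and 31.4% of listed tags at 22 months, against 25%, 21% and 24.5% at 3 months.

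None of the 21 IDs rose or fell past the threshold between the ages. A total of 17 passed the filter on low counts and were tested, of which 0 rose and 0 fell with age (edgeR quasi-likelihood, adjusted p under 0.05 by Benjamini-Hochberg over 439 IDs). Over all IDs tested, 4.78% rose and 1.82% fell. At an unadjusted p under 0.05 the count of the 17 was also 0, against 25.5% of all IDs tested. DESeq2 called 1 of the 17, AS-tDR-007238, against 22.1% of all IDs tested, and limma-voom called 0, against 10.5%. The lowest adjusted p among the 17 was 0.252 (edgeR). The median log2 difference of the 17 was 0.005, against -0.155 for all IDs tested, and 9 of the 17 were positive, against 42.6% of all. Of the 17, 3 lay higher in every library at 22 months than in any at 3 months and 0 lay lower, against 19.4% and 20% of all IDs tested, so the share that separated upwards was near the background. Among these 3, AS-tDR-007893 passed the filter only through the libraries at 22 months.

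The 5 IDs on the 5′ run had log2 differences between 0.44 and 0.75, with standard errors between 0.22 and 0.39 and adjusted p between 0.252 and 0.332 (edgeR). All 5 differences stayed positive in the 14 alternative fits. In the fit of all 6 libraries 42.6% of all IDs tested were positive. The alternative fits reuse the same libraries, and the 5 IDs were bounded to 1 run of the same 16 parents. Their agreement in sign is therefore not independent support. The size of the 5 differences moved. With library size only they lay between 0.21 and 0.52, with AS-tDR-007243 lowest, and without 22 month replicate 1 between 0.67 and 0.98, where AS-tDR-000011 was at 0.82 and AS-tDR-010647 at 0.94. AS-tDR-007238, the most abundant of the 21, was at 60906, 79273 and 75736 CPM (tags scaled to one common total of tested IDs in every library, with TMM, a factor per library that evens out composition) in the libraries at 22 months, against 52180, 44832 and 56243 CPM at 3 months. Every library at 22 months lay above every library at 3 months. The means were 71972 ± 9745 CPM at 22 months, against 51085 ± 5784 CPM at 3 months (± SD over 3 libraries), a ratio of 1.41 and a fitted log2 difference of 0.49 (SE 0.24; edgeR adjusted p = 0.252, DESeq2 adjusted p = 0.0459). As a share of listed tags, without TMM, it also separated, at 6.35%, 6.74% and 6.42% at 22 months against 5.69%, 4.56% and 6.12% at 3 months.

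AS-tDR-007243 was at 17731, 23246 and 23484 CPM at 22 months, against 17452, 13297 and 16756 at 3 months, and the ages separated by a narrow margin. As a share of listed tags they overlapped, with 1.85% in 22 month replicate 1 against 1.9% in 3 month replicate 1. Its log2 difference was 0.44 (SE 0.22; edgeR adjusted p = 0.275). AS-tDR-000011 was at 38995, 56933 and 67129 CPM at 22 months, against 39235, 29293 and 45106 at 3 months. Replicate 1 of 22 months lay below 2 of the 3 libraries at 3 months, so the ages overlapped (log2 difference 0.52, SE 0.31; edgeR adjusted p = 0.332).

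AS-tDR-010647 was at 10801, 18190 and 20634 CPM at 22 months, against 9653, 8683 and 14508 at 3 months. The ages overlapped through 22 month replicate 1 and 3 month replicate 3 (log2 difference 0.60, SE 0.34; edgeR adjusted p = 0.313). AS-tDR-001297 was the most uneven of the 5, at 40060, 75392 and 29574 CPM at 22 months, against 29166, 32927 and 24062 at 3 months. Its mean of 48342 ± 24006 CPM at 22 months, against 28719 ± 4449 CPM at 3 months (± SD over 3 libraries), gave the highest log2 difference of the 5, 0.75 (SE 0.39; edgeR adjusted p = 0.282). That value rests on 22 month replicate 2, without which the log2 difference was 0.28, and it was 1.09 without 22 month replicate 3.

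**Figure D2:**
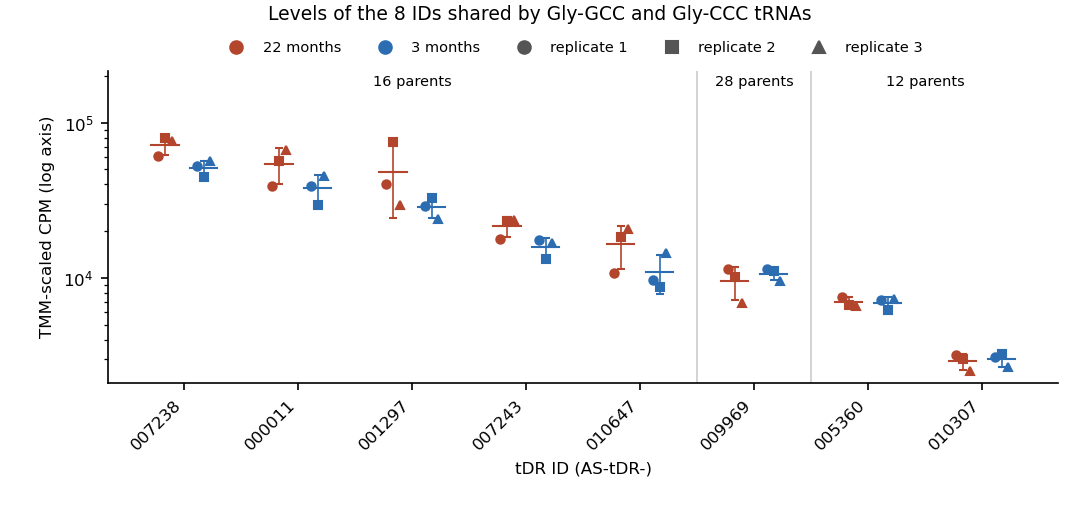
Points are TMM-scaled CPM per library on a log axis for the 8 IDs shared by Gly-GCC and Gly-CCC tRNAs, 22 months left of 3 months for each ID, with bars for the mean ± SD (n = 3). The ages separate for AS-tDR-007238 and AS-tDR-007243 and overlap for the other 6.

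The make-up of these 5 IDs differed between libraries of one age. The share of AS-tDR-001297 in their summed tags was 23.8%, 29.8% and 13.7% in 22 month replicates 1, 2 and 3, against 19.8%, 25.5% and 15.4% in 3 month replicates 1, 2 and 3. It was highest in replicate 2 and lowest in replicate 3 at both ages. The share of AS-tDR-010647 was 6.41%, 7.19% and 9.53% at 22 months, against 6.54%, 6.73% and 9.26% at 3 months, highest in replicate 3 at both ages. AS-tDR-000011 was likewise highest in replicate 3, with 31% at 22 months and 28.8% at 3 months, against 22.5% to 26.6% in the other 4 libraries. AS-tDR-007238 varied little, between 31.3% and 36.1% at 22 months and between 34.7% and 35.9% at 3 months. The Wilson interval of each of these shares reached at most 1.21 percentage points to either side. The labels do not say that a replicate number marks anything shared, and over all tested IDs same-numbered libraries did not deviate together (r across IDs of -0.459, 0.0366 and -0.341 for replicates 1, 2 and 3). Deviations from the mean of 3 libraries depend on one another, so these r values cannot settle whether the numbers pair the libraries. The part of fragment length or handling in the pattern of shares was not tested.

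**Figure D3:**
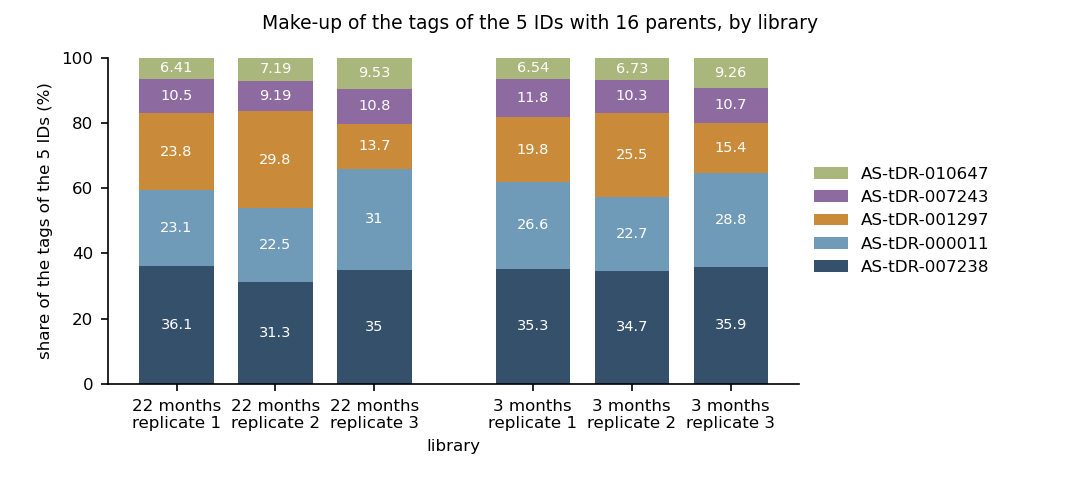
Stacked bars give, for each library, the percent of the summed tags of the 5 IDs with 16 parents that each ID holds, with 22 months on the left and 3 months on the right. The share of AS-tDR-001297 is lowest in replicate 3 of both ages, 13.7% and 15.4%.

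The other 3 shared IDs showed no such direction. AS-tDR-009969, whose parents include every Gly-GCC and Gly-CCC tRNA named for the 21, was at 11421, 10148 and 6924 CPM at 22 months, against 11395, 10990 and 9492 at 3 months. Its log2 difference of -0.16 (SE 0.24; edgeR adjusted p = 0.703) turned to 0.08 without 22 month replicate 3, the lowest of the 6 libraries. AS-tDR-005360 was at 7578, 6720 and 6549 CPM at 22 months, against 7224, 6202 and 7348 at 3 months. The means of 6949 ± 551 CPM at 22 months, against 6925 ± 629 CPM at 3 months (± SD over 3 libraries), differed by less than either SD, and the log2 difference was 0.005 (SE 0.17; edgeR adjusted p = 0.983). AS-tDR-010307, with the same parents, was at 3182, 2987 and 2517 CPM at 22 months, against 3084, 3243 and 2644 at 3 months (log2 difference -0.05, SE 0.18; edgeR adjusted p = 0.882). Together these 3 took 1.79% ± 0.486 of listed tags at 22 months, against 2.19% ± 0.154 at 3 months (± SD over 3 libraries). That the 5 IDs on the 5′ run differ from these 3 in their response to age was not tested.

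Gly-TCC fragments were far less abundant. The 11 IDs took 1.23%, 1.2% and 0.512% of listed tags in the libraries at 22 months, against 1.21%, 1.38% and 1.74% at 3 months, and the ages overlapped. The 5 IDs with 8 parents were bounded to reach the 3′ side of base 49. They held 93.1%, 88.4% and 84.3% of Gly-TCC tags at 22 months, against 95.1%, 96.3% and 92.9% at 3 months. AS-tDR-007308, the most abundant, was at 5690, 6206 and 2670 CPM at 22 months, against 5290, 7204 and 7660 at 3 months. Its log2 difference of -0.47 (SE 0.36; edgeR adjusted p = 0.478) was -0.10 without 22 month replicate 3. AS-tDR-008562 was at 3668, 4762 and 1668 CPM at 22 months, against 3820, 4200 and 5578 at 3 months, and its log2 difference of -0.43 (SE 0.40; edgeR adjusted p = 0.56) was -0.03 without that library.

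The same library listed other Gly-TCC IDs at 0. AS-tDR-009383 had 44, 56 and 0 tags in 22 month replicates 1, 2 and 3, against 38, 39 and 45 tags at 3 months. AS-tDR-009575 had 25, 31 and 0 tags at 22 months, against 22, 15 and 22 at 3 months, and AS-tDR-011285 had 19, 17 and 0 tags, against 12, 8 and 24. All 3 were thus listed in every library but 22 month replicate 3, where the smallest listed count was 17. That count stands for 236 CPM, against minima of 174 to 208 CPM in the other libraries. AS-tDR-011285 was at 208 CPM in 22 month replicate 2 and at 192 and 174 CPM in 3 month replicates 1 and 2. Its 0 in 22 month replicate 3 therefore does not show a lower level than in those libraries. Their negative log2 differences, -0.89, -0.66 and -0.89, were -0.24, -0.01 and -0.24 without that library, and none passed (edgeR adjusted p = 0.675, 0.767 and 0.703). Of the 8 Gly-TCC IDs tested, 0 rose and 0 fell, against 4.78% and 1.82% of all IDs tested (edgeR). Their median log2 difference was -0.45, against -0.155 for all IDs tested. It was -0.02 without 22 month replicate 3 and -0.654 with library size only, against -0.015 and -0.34 for all IDs in those fits. Of all IDs tested 42.6% had a positive log2 difference, and of the 8 Gly-TCC IDs 3 did. These include AS-tDR-003370, with 45, 45 and 37 tags at 22 months against 28, 29 and 21 at 3 months (log2 difference 0.14, edgeR adjusted p = 0.768), and AS-tDR-003375, with 29, 24 and 17 tags against 23, 9 and 13 (0.14, edgeR adjusted p = 0.881). Both signs turned with library size only, to -0.053 and -0.055 (also under scaling by the smallest count each library lists, to -0.037 and -0.011).

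A few Gly-TCC IDs were listed mainly or only at 22 months. AS-tDR-007893 had 16, 31 and 28 tags in the libraries at 22 months, against 0, 0 and 9 at 3 months, where 9 is the smallest count that library lists. It passed the filter on low counts only through the libraries at 22 months, so its separation is no support for a change, and the test did not pass (edgeR adjusted p = 0.428). AS-tDR-001303 had 0, 37 and 22 tags at 22 months and was listed at 0 in all 3 libraries at 3 months. It did not pass the filter and was not tested. The 2 IDs of Gly-TCC-2-1 were each listed in 1 library, AS-tDR-010833 with 18 tags in 22 month replicate 2 and AS-tDR-015088 with 18 tags in 22 month replicate 3, against a smallest listed count of 17 in both. Neither was tested, and a single value next to the minimum does not separate the ages.

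**Figure D4:**
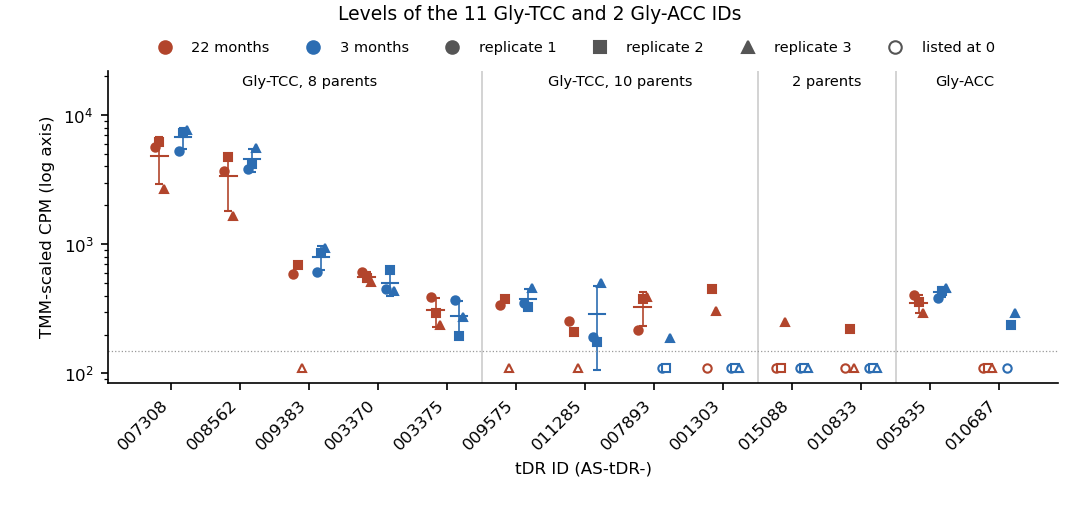
Points are TMM-scaled CPM per library on a log axis for the 11 Gly-TCC and 2 Gly-ACC IDs, 22 months left of 3 months, with the mean ± SD (n = 3) where all 3 libraries list the ID. Open points under the dotted line are listed at 0 and have no level, and 22 month replicate 3 is open for 3 Gly-TCC IDs that the other 5 libraries list.

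The 2 Gly-ACC IDs lay near the listing minimum. AS-tDR-005835 had 30, 29 and 21 tags at 22 months, against 24, 20 and 22 at 3 months. On the CPM scale it was at 405, 355 and 292 at 22 months, against 384, 435 and 458 at 3 months, and the ages overlapped (log2 difference -0.28, SE 0.35; edgeR adjusted p = 0.674). Without 22 month replicate 3 its log2 difference was -0.10. AS-tDR-010687 was listed at 0 in all 3 libraries at 22 months and had 0, 11 and 14 tags at 3 months. It was not tested. Other IDs that name Gly-ACC-1-1 also name valine tRNAs and are not among the 21.

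IDs of a single isoacceptor are given as counts. Of 24 IDs with Gly-GCC parents only, 19 were tested, 0 rose and 0 fell (edgeR), with a median log2 difference of 0.39, and 7 separated upwards, against 19.4% of all IDs tested. At an unadjusted p under 0.05 (edgeR), 4 of these 19 were higher and 0 lower, against 69 and 43 of all 439 IDs tested. DESeq2 called 2 of the 19, against 22.1% of all IDs tested. Of 14 with Gly-CCC parents only, 13 were tested, 0 rose and 0 fell (edgeR; 4.78% and 1.82% of all IDs tested), with a median of 0.22, and 2 separated upwards and 2 downwards, against 19.4% and 20% of all. Of these 13, 2 were higher and 1 lower at an unadjusted p under 0.05 (edgeR; 69 and 43 of all 439). DESeq2 called 1 of the 13, against 22.1% of all. Among IDs above 0 in all 6 libraries edgeR called 1 of 14 Gly-GCC IDs and 2 of 7 Gly-CCC IDs, against 0 of 13 of the 21. Over all 290 IDs in that fit it called 65. The 8 shared IDs had a median of 0.47, and 2 separated upwards. These lists share the libraries and overlapping fragments with the 21, and the differences between the lists were not tested. The share of the 21 in all glycine tags was 79.3%, 77.5% and 64.5% in 22 month replicates 1, 2 and 3, against 79%, 79.3% and 85.7% at 3 months, so it was lowest in 22 month replicate 3.

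**Figure D5:**
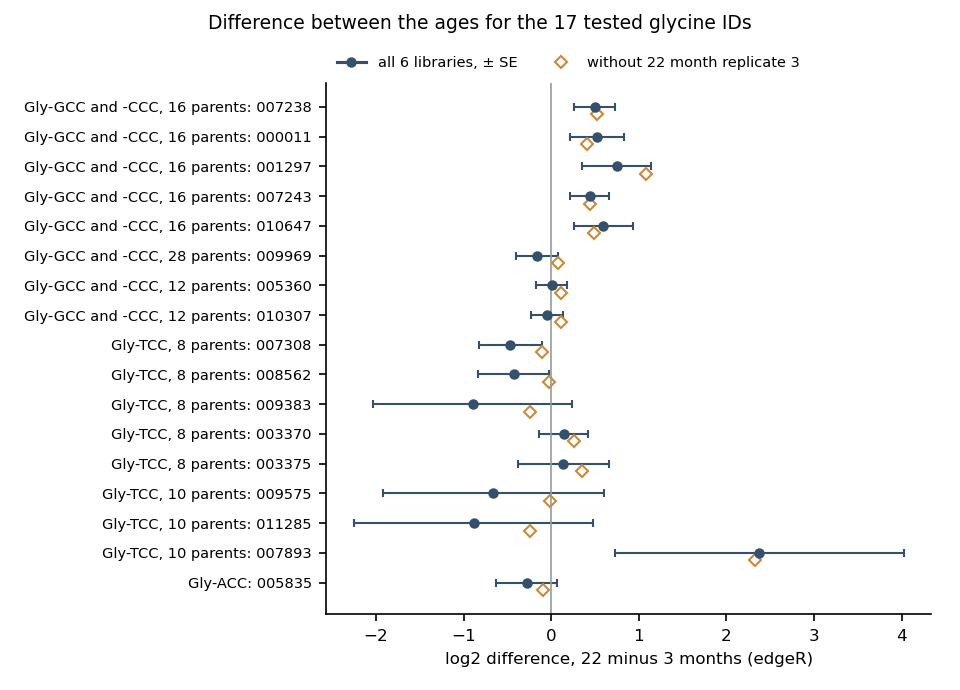
Dots give the edgeR log2 difference (22 minus 3 months) with its standard error for the 17 tested IDs, and open diamonds the same without 22 month replicate 3. The 5 IDs with 16 parents lie between 0.44 and 0.75, and the negative Gly-TCC values lie nearer 0 without that library.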

How the data were processed

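Small RNA of total brain RNA (Trizol) was sequenced single-end on a NextSeq instrument, per the labels' protocols. The submitters' processing notes name FastQC, cutadapt, Novoalign and mm10; versions, counting rule and listing minimum were not stated there. The deposited values are tag counts, per the file headers, given for each tDR ID; whole numbers with unequal totals, they were treated as raw counts, although the file title calls them normalized. Counts repeat on each parent line, so each ID entered 1 time. Small RNA tags are not divided by length.

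All 591 IDs were filtered (filterByExpr, minimum count 10), TMM-scaled and tested with edgeR 4.0.16 in R 4.3.3 (quasi-likelihood, no replicate term, Benjamini-Hochberg over 439 IDs). DESeq2 1.42.0 and limma 3.58.1 were alternatives. The standard error is the log2 difference over the square root of F. The test was tried on simulated data, only with changes larger than those fitted for the IDs on the 5′ run. It therefore does not show how often changes of their size would pass. Libraries of one age differed beyond counting noise (chi-square per degree of freedom 6.44 to 59.7). The parent sequences and names came from the deposited table, and tRNA gene counts from RefSeq. Tables and plots used pandas 2.3.3, scipy 1.17.1 and matplotlib 3.10.9.

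The members, lists, tests and alternatives were chosen with earlier results of these data known. By the rule for named IDs these were the 12 most abundant members, all Gly-TCC members, those past the threshold or with the largest changes that separated the ages, and those at 0 throughout one age; AS-tDR-005835 was added after its values were seen, so that all 21 are described.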

Additional observations from a re-analysis of the deposited data

How the results depend on the processing

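The count of the 21 glycine IDs past the threshold was 0 in every edgeR fit and with limma-voom, and 1 with DESeq2 (AS-tDR-007238, log2 difference 0.52). With a replicate block it was 0. Whether the replicate numbers pair the libraries was not settled. Over all IDs the count of 29 was 0 with library size only, with scaling to the smallest listed count, with no filter on low counts and with the replicate block, 65 among IDs above 0 in all 6 libraries, 50 with each 0 replaced by 1 less than the smallest count listed, 97 with DESeq2 and 46 with limma-voom, and between 0 and 14 with 1 library left out. The median over the tested glycine IDs, 0.005, was -0.20 with library size only and -0.168 under scaling by the smallest count listed, where the median of all IDs was -0.34 and -0.31 in place of -0.155. The log2 ratio of the mean summed level of the 21, 22 over 3 months, was 0.20 as a share of listed tags (0.109 to 0.271 with 1 library left out), -0.14 as a share of glycine tags and 0.44 in TMM-scaled CPM. Of 234 values of single IDs, 222 kept direction and side, and 11 changed sign, in 5 IDs whose log2 differences lay between -0.16 and 0.14. With library size only AS-tDR-003370, AS-tDR-003375 and AS-tDR-005360 were at -0.053, -0.055 and -0.20, and under scaling by the smallest count listed at -0.037, -0.011 and -0.168. AS-tDR-005360 was at -0.012 among IDs above 0 in all 6 libraries and at -0.032 with each 0 so replaced. With 1 library left out AS-tDR-009969 lay between -0.239 and 0.083 and AS-tDR-010307 between -0.129 and 0.108. Both were at their highest without 22 month replicate 3, and AS-tDR-010307 was also positive, at 0.088, without 3 month replicate 2. The cause was not tested. Counts near the listing minimum limit what can be said of most Gly-TCC and both Gly-ACC IDs.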
